A study of Mus musculus with 4 samples.

Results

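The genes Ttn, Neb, Des, Actn2, Myot, Ldb3, Tcap, Myoz1 and Ankrd2, which build the giant filaments and the Z-disc of muscle, were examined for binding of CTCF, a zinc-finger protein that holds many chromosome loops in place. They were chosen by name, and are 9 of the 21755 protein-coding genes that GENCODE M21 places on chromosomes 1 to 19 and X. Each gene was taken with 50 kb on either side, and these windows held 63 of the 42163 peak summits of the conservative peak list. No summit fell in 2 of the windows. The study profiled CTCF by ChIP-seq, which sequences the DNA that an antibody brings down with the protein, in calf muscle (gastrocnemius) of B6CASTF1/J mice, which are first-generation hybrids. All animals were adult females of 2 months, and no group was treated or mutated. The 4 libraries come from 2 groups of the same description, named pool E and pool F, which are labelled as separate biological replicates. Either pool combines 2 gastrocnemius samples and was sequenced as 2 technical replicates. The technical replicates were merged before peaks were called, so the spread between them is unknown. Each pool gives a single value per peak, so no test between the pools was possible. The tissue is a mixture of muscle fibres, connective tissue, vessels and nerve, and peak lists hold no expression values with which to check its makeup.

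The sarcomere is the contractile unit of striated muscle, bounded by Z-discs in which the actin filaments of neighbouring units are anchored. Titin (Ttn) runs from the Z-disc to the M-band as a molecular spring, and nebulin (Neb) lies along the actin filament. Alpha-actinin 2 (Actn2) crosslinks actin at the Z-disc, where it binds the PDZ and LIM domain protein of Ldb3, myotilin (Myot) and myozenin 1 (Myoz1), while telethonin (Tcap) caps the end of titin. Desmin (Des) filaments tie neighbouring Z-discs together, and Ankrd2 encodes an ankyrin-repeat protein that responds to stretch. CTCF binds a long, directional motif. Where its sites anchor chromosome loops, the motifs at both ends usually point toward each other, so the strand of a site is given here beside its strength.

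Peak strength is the score the authors gave each peak. Its scale is unknown, so it serves only for ranking and description inside 1 list. The conservative list was made by comparing pool E with pool F through the irreproducible discovery rate (IDR), which asks whether a peak ranks alike in both inputs, with a threshold of 0.05. Over the whole list the median strength was 245.6, with quartiles of 116.5 and 432.1. The first sequences show the strongest motif-bearing site in each of 8 windows, as the reference bases around the best motif match near the summit. Whether binding depends on these bases was not tested. All sequences are mm10 (GRCm38), written 5′ to 3′ on the strand of the motif, with the 14 bases that match the CTCF core motif in capitals. The site of Myot is not printed.
Ttn, intron 43 (chr2:76929875-76929928, plus strand): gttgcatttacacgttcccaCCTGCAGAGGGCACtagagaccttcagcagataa
Neb, upstream, in an intron of Arl5a (chr2:52406664-52406717, minus strand): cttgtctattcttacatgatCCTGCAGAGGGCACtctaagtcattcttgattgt
Des, upstream, between genes (chr1:75343035-75343088, plus strand): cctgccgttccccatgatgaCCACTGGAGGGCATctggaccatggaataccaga
Actn2, upstream, between genes (chr13:12386473-12386526, minus strand): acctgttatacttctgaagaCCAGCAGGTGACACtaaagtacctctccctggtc
Ldb3, upstream, between genes (chr14:34616971-34617024, plus strand): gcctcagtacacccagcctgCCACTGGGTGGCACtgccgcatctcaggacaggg
Tcap, upstream, in an intron of Stard3 (chr11:98372584-98372637, minus strand): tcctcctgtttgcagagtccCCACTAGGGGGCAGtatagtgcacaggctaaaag
Myoz1, upstream, in a coding exon of Synpo2l (chr14:20661140-20661193, minus strand): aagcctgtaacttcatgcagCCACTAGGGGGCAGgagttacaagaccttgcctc
Ankrd2, upstream, in an intron of Ubtd1 (chr19:42026318-42026371, minus strand): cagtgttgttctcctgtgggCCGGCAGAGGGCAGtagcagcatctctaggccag
Only the site of Ttn lies within its own gene; the others are in the flanks. The Tcap and Myoz1 sites match the motif exactly, the Des site has 2 mismatches and the other 5 have 1.

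The second set shows sites that lie inside a named gene or within 5 kb of its start, which carry the results on gene starts and introns.
Ttn, intron 1 (chr2:76980396-76980449, minus strand): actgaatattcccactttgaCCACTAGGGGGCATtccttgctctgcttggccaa
Ttn, intron 109 (chr2:76867050-76867103, plus strand): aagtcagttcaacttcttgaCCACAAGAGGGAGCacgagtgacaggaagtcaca
Neb, intron 54 (chr2:52262334-52262387, plus strand): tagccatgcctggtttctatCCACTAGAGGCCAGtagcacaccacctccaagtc
Actn2, near the start (chr13:12340264-12340317, plus strand): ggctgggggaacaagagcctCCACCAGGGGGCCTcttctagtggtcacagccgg
Actn2, intron 19 (chr13:12273118-12273171, minus strand): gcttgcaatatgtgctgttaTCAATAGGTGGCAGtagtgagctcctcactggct
Ldb3, intron 5 (chr14:34570463-34570516, minus strand): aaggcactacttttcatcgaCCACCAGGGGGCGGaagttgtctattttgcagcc
Ldb3, intron 10 (chr14:34549554-34549607, minus strand): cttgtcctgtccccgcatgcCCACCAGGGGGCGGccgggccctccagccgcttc
Tcap, upstream of the start (chr11:98383262-98383315, minus strand): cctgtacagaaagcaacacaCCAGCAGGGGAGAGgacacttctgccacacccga
Myoz1, upstream of the start (chr14:20658475-20658528, minus strand): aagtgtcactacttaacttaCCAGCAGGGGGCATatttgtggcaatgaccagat
Ankrd2, upstream of the start (chr19:42035494-42035547, plus strand): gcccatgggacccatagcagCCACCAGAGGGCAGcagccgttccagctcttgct
The sites in introns 5 and 10 of Ldb3 hold the same 14 bases, an exact match to the motif, and the site at Ankrd2 is also exact. Intron and exon numbers count from the gene start in the coding transcript with the most exons.

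**Figure D1:**
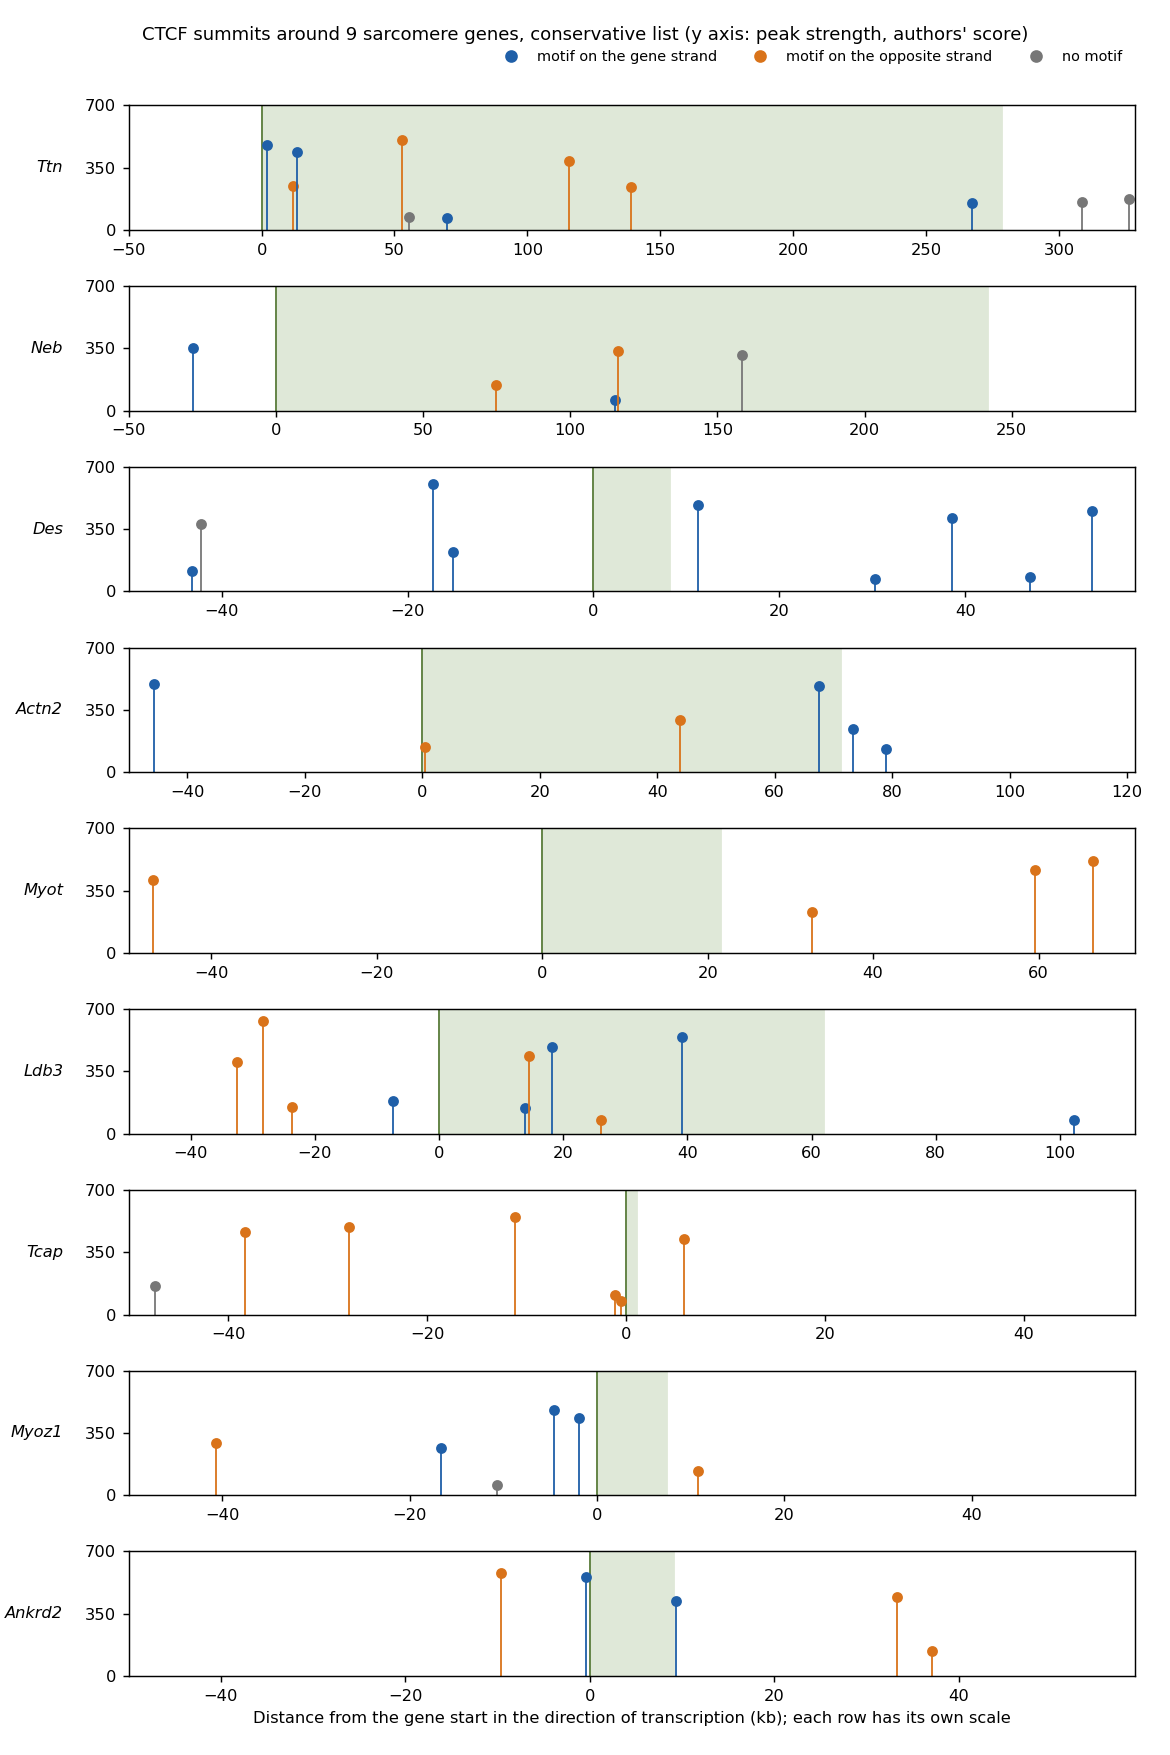
Each row shows 1 gene with 50 kb on either side; the x axis is the distance from the gene start in kb in the direction of transcription, the y axis the peak strength (authors' score), and the shaded band the gene. Each stem is 1 of the 63 conservative summits, coloured by the strand of its motif relative to the gene: Ttn holds 9 summits inside the gene and Ldb3 5, while Des, Myot, Tcap, Myoz1 and Ankrd2 hold none.

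Titin had 9 CTCF summits inside the gene, more than any other of the 9 genes, and none in the 50 kb before its start. The gene spans 76703980 to 76982547 on the minus strand of chromosome 2, 279 kb with 347 exons in the transcript used. Among the 1476 protein-coding genes of 150 kb or longer, the median was 4 summits inside the gene (quartiles 2 and 6), 86.2% had fewer than 9 and 10.2% had more. Per length, Ttn held 3.23 summits per 100 kb, against a median of 1.29 in that class. The summit nearest to the Ttn start lay 2117 bp into the gene, in intron 1 and 248 bp before the start of an internal coding transcript, Ttn-204. Its strength was 477.3 in the conservative list, 304.2 in the pool E input and 178.2 in the pool F input.

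Binding within Ttn was uneven: the 5 strongest sites, the first of them just described, all lay within 115478 bp of the start. That stretch also held the weakest sites, of 70.44 and 69.13, at 55444 and 69597 bp. A site of 240.5, close in strength to the weakest of the 5, lay 139154 bp from the start. The strongest lay in intron 43, 52654 bp from the start, with a strength of 505.5 (296.2 in pool E and 212.4 in pool F). A site in intron 8 reached 435.2 (283.2 and 155.2), and 1 in intron 109 reached 387.4 (247.5 and 139.4). The site in intron 6, 1776 bp from that in intron 8, had a strength of 245.8 (166.1 and 77.26), and these close neighbours carry motifs on opposite strands. The coding exons held 3 summits. That in exon 148 had a strength of 240.5 (160.3 and 78.42), that in exon 339 had 149.7 (101.3 and 43.39), and that in exon 44, the weakest of these and the only summit inside Ttn without a motif, had 70.44 (46.73 and 20.40). The last summit, in intron 45, had 69.13 (55.11 and 17.23). Every one of these 9 was stronger in pool E than in pool F. Most of the conservative list showed the same, with a first quartile of 0.74 for the log2 ratio of the 2 inputs. Between exon 148 and exon 339 there was a stretch of 128194 bp without a conservative summit. Beyond the end of the gene, summits of 157.6, 781 bp before the start of Fkbp7, and of 176.1, in an intron of Pjvk, had no motif.

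Nebulin, the other giant filament gene, had 4 summits in 242 kb and none within 5 kb of its start. It lies at 52136647 to 52378474 on the minus strand of chromosome 2. Its count equals the median of its length class, in which 47.6% of genes had fewer summits and 41.9% had more. The strongest of the 4 lay in intron 54, at 335.5 (217.0 in pool E and 116.0 in pool F), and a weak summit of 57.50 lay in the same intron 772 bp away (39.06 and 19.38). A summit of 313.0 in intron 85 (222.7 and 89.88) had no motif within 50 bp. The remaining summit, in intron 23, had a strength of 145.3 (115.3 and 28.01). Both this summit and that of 57.50 were called in pool E but lacked a partner in the thresholded pool F list. The summit nearest to the Neb start lay 28216 bp upstream, in an intron of Arl5a, a small GTPase gene, with 353.4 (247.0 and 110.1). A pool F peak overlapped it, but not far enough to count as a partner.

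Among genes of 150 kb or longer 91.9% had at least 1 summit inside, so the presence of summits in Ttn and Neb is what most genes of that length show. Of the 9 genes, 4 had a summit inside (Ttn, Neb, Actn2 and Ldb3), against 45.8% of protein-coding genes of any length. By length, 81.3% of genes of 50 to 150 kb, 49.5% of those of 10 to 50 kb and 16.4% of shorter ones did. The plot of summits against gene length sets the 9 genes in this background.

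**Figure D2:**
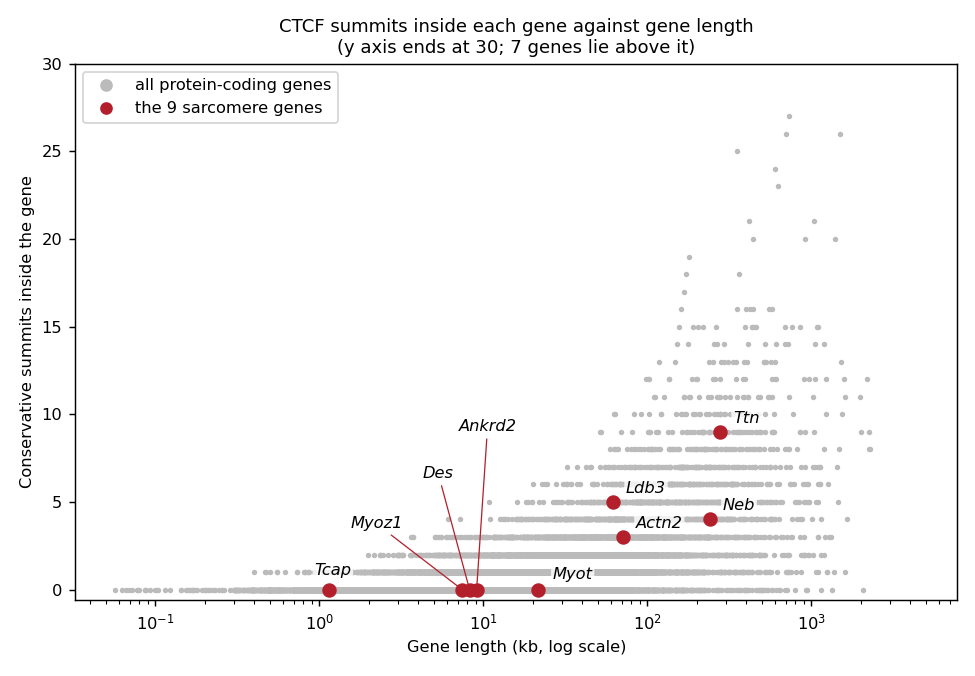
The x axis is gene length in kb on a log scale and the y axis the number of conservative summits inside the gene; grey points are the 21755 protein-coding genes, except 7 that lie above the end of the axis, and red points the 9 sarcomere genes. Ttn (9 summits) and Ldb3 (5) lie above the medians of their length classes (4 and 2), Neb (4) lies on its median, and the 5 shortest of the 9 genes lie at 0.

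Actn2 carried summits at its start, in its middle and around its end. The gene lies at 12269426 to 12340760 on the minus strand of chromosome 13 and spans 71.3 kb. A summit of moderate strength, 143.5 (94.40 in pool E and 47.46 in pool F), lay 510 bp into the gene with a motif of 2 mismatches 40.5 bp from the summit. The strongest inside the gene lay in intron 19, 3721 bp before the gene end, at 482.0 (295.0 and 189.8). A summit in intron 8 had 290.7 (203.0 and 86.23). Its motif points against the gene, as does that at the start, while the motif in intron 19 and those 2078 and 7692 bp past the end (245.2 and 130.6) point along it. The 3 summits inside Actn2 compare with a median of 2 for genes of 50 to 150 kb, of which 66.1% had fewer. All 4 thresholded lists held the same count in Actn2, 3 inside and 6 in the window.

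Ldb3 was the most densely bound of the 9 gene bodies. The gene, which lies at 34526603 to 34588682 on the minus strand of chromosome 14, held 5 summits in 62.1 kb, or 8.05 per 100 kb against a class median of 1.97. In its class 88.5% of genes had fewer than 5 summits and 6.07% had more. The strongest lay in intron 10, at 544.0 (335.6 in pool E and 210.9 in pool F). The next, in intron 5, reached 486.4 (286.2 and 201.5). A pair in intron 3, 576 bp apart with motifs on opposite strands, had 434.9 (265.4 and 168.9) and 146.8 (99.91 and 41.90). The weakest, in intron 8, had 76.13 (50.78 and 22.56). None of the 5 lay within 5 kb of the start of the gene; the nearest to it lay 7364 bp upstream, in an intron of Opn4, the melanopsin gene, with 184.9 (118.0 and 71.60). A summit between genes, 28310 bp before the start of Ldb3 and 16850 bp before that of Opn4, was the strongest of all 63, at 631.3 (367.8 and 268.8) and rank 128 of the list.

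Myotilin had no CTCF summit inside the gene or near either end. Myot lies at 44334074 to 44355724 on the plus strand of chromosome 18. Its nearest summit, 10904 bp past the end, had a strength of 230.9 (157.1 in pool E and 74.85 in pool F), and on the other side the nearest lay 47090 bp upstream, at 410.8 (254.7 and 159.1). Stronger sites of 463.4 and 518.2 lay in introns of Dcp2, an mRNA decapping enzyme gene, 37909 and 44950 bp past the end, and both matched the motif exactly. The 4 summits of the window were the fewest among the 9 genes, and equal the median over all protein-coding genes taken with the same flanks (4, quartiles 2 and 7). All 4 were present in pool E and in pool F.

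Myozenin 1 and Ankrd2, both short genes, had strong CTCF close to the start and none inside. Myoz1 lies at 20649107 to 20656540 on the minus strand of chromosome 14, and its start had a pair of summits upstream. The nearer lay 1971 bp away between genes, at 433.1 (269.4 in pool E and 163.8 in pool F). The other lay 4635 bp away in a coding exon of the neighbouring gene Synpo2l, a cytoskeletal gene of striated muscle, at 476.6 (261.5 and 216.0). Both motifs point along Myoz1. Past the gene end, a weaker summit of 135.4 at 3388 bp carries its motif on the opposite strand, so Myoz1 was the 1 gene of the 9 whose nearest motifs on the 2 sides point toward each other. Ankrd2 lies at 42036000 to 42045110 on the plus strand of chromosome 19 and had a summit just outside either end. That 457 bp before the start had a strength of 558.6 (328.2 and 231.8), rank 2371, and that 265 bp past the end, 235 bp before the start of Hoga1, had 423.7 (260.1 and 170.8). Both motifs point along the gene. A further strong summit of 578.2 (327.7 and 258.5), 9637 bp upstream in an intron of Ubtd1, points against it.

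Telethonin, the smallest gene of the set at 1.14 kb, had only weak CTCF at its start. Tcap lies at 98383811 to 98384953 on the plus strand of chromosome 11 in a gene-dense region. The summits 504 and 1127 bp upstream had strengths of 75.05 (59.16 in pool E and 18.93 in pool F) and 108.6 (84.78 and 24.48). Neither had a partner in the thresholded pool F list, and that list held no summit within 5 kb of the Tcap start. The summit of 108.6 also lacked a partner in the pool E list, although a pool E peak overlapped it to a smaller extent. The strong sites lay farther out: 550.0 (319.2 and 234.0) in an intron of Stard3, a cholesterol transport gene, 422.3 (277.1 and 145.3) in an untranslated exon part of Pgap3 4663 bp past the Tcap end, 491.1 (308.1 and 184.2) in an intron of Ppp1r1b, and 466.0 (280.1 and 190.5) between genes 38357 bp upstream. The Stard3 site and the site of 466.0 matched the motif exactly.

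Desmin had no summit within 5 kb of its start and none inside its 8.25 kb, between strong sites on both sides. Des lies at 75360329 to 75368579 on the plus strand of chromosome 1. The strongest site of its window lay 17274 bp upstream between genes, at 602.9 (350.3 in pool E and 256.0 in pool F), rank 615, with a neighbour of 223.7 (140.5 and 78.32) 2156 bp away. On the other side the nearest lay 3015 bp past the end, at 486.1 (296.6 and 191.5), between Des and Speg, which encodes a kinase of striated muscle. A further 4 summits, of 68.04 to 451.9, lay in introns of Speg. Of the thresholded lists, that of pool F also held the site of 602.9, while those of pool E and of the combined data did not.

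Taken by gene, 5 of the 9 (55.6%, 95% Wilson interval 26.7 to 81.1) had a conservative summit within 5 kb of the start: Ttn, Actn2, Tcap, Myoz1 and Ankrd2. Over all protein-coding genes the share was 37.4%, which lies inside that interval. The strongest start summit of each of the 5 ran from 108.6 at Tcap to 558.6 at Ankrd2 with a median of 476.6, and over the 8141 protein-coding genes with one the median was 285.6 (quartiles 130.1 and 468.4). Within 1 kb of the start the count was 3, Actn2, Tcap and Ankrd2, against 20.6% of all protein-coding genes. Among peaks above the median strength, 3 genes (Ttn, Myoz1 and Ankrd2) had a summit within 5 kb, and the share over all protein-coding genes was also 20.6%. By position, 19 of the 63 summits lay more than 5 kb before a start, 7 within 5 kb of a start, 18 in the interior of a gene, 6 within 5 kb of an end and 13 farther past it. Their median strengths were 380.2, 433.1, 268.2, 423.0 and 176.1 in that order.

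The strengths of the 63 window peaks had a median of 313.0 (quartiles 146.1 and 464.7), and 36 of them lay above the median of the whole list. Every one of the 63 was stronger in the pool E input than in the pool F input. The median log2 ratio of the 2 inputs was 0.89, from 0.28 at the Myoz1 site in Synpo2l to 2.34 at a site 43212 bp before Des. Over all conservative peaks the median was 1.03 (quartiles 0.74 and 1.31), so most of the list leaned the same way. The scale of each input was not stated, so this offset is a description. For all 63, the first input was identical in position and strength to a ranked pool E peak and the second to a ranked pool F peak.

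**Figure D3:**
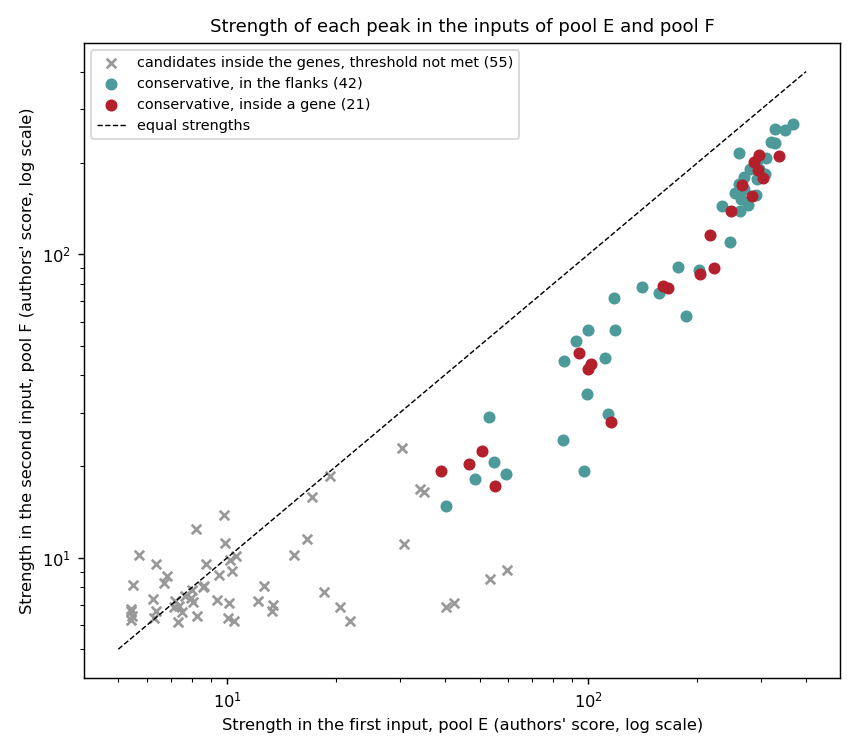
Each point is 1 peak, with its strength in the pool E input on the x axis and in the pool F input on the y axis, both the authors' score on log scales. The 63 conservative peaks, 21 inside the genes and 42 in the flanks, all lie below the dashed line of equal strengths, and the crosses are the 55 candidates inside the genes that missed the IDR threshold.

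The pool F list held fewer of these sites than the pool E list, and was also shorter as a whole (33784 peaks against 50899). A partner with a reciprocal overlap of 50% was found in pool E for 56 of the 63 window peaks (88.9%, interval 78.8 to 94.5) and in pool F for 47 (74.6%, interval 62.7 to 83.7). Over all conservative peaks the shares were 87.8% and 66.2%, and both lie inside those intervals. The 47 with a partner in pool F had a median strength of 422.3, and the other 16 had a median of 112.4. Of these 16, 5 were overlapped by a pool F peak to a smaller extent, with strengths of 135.4 to 353.4, and 11 were not overlapped at all, with strengths of 55.36 to 147.7. By gene, Ttn held 14 summits inside in the pool E list and 7 in that of pool F, and Neb 5 and 2. Ldb3 held 5 and Actn2 3 in each. In the pool E and combined lists 6 genes had a summit near the start rather than 5, Des being added (43.3% and 42.7% of all protein-coding genes), and in the pool F list 4 did, without Tcap (31.5%).

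**Figure D4:**
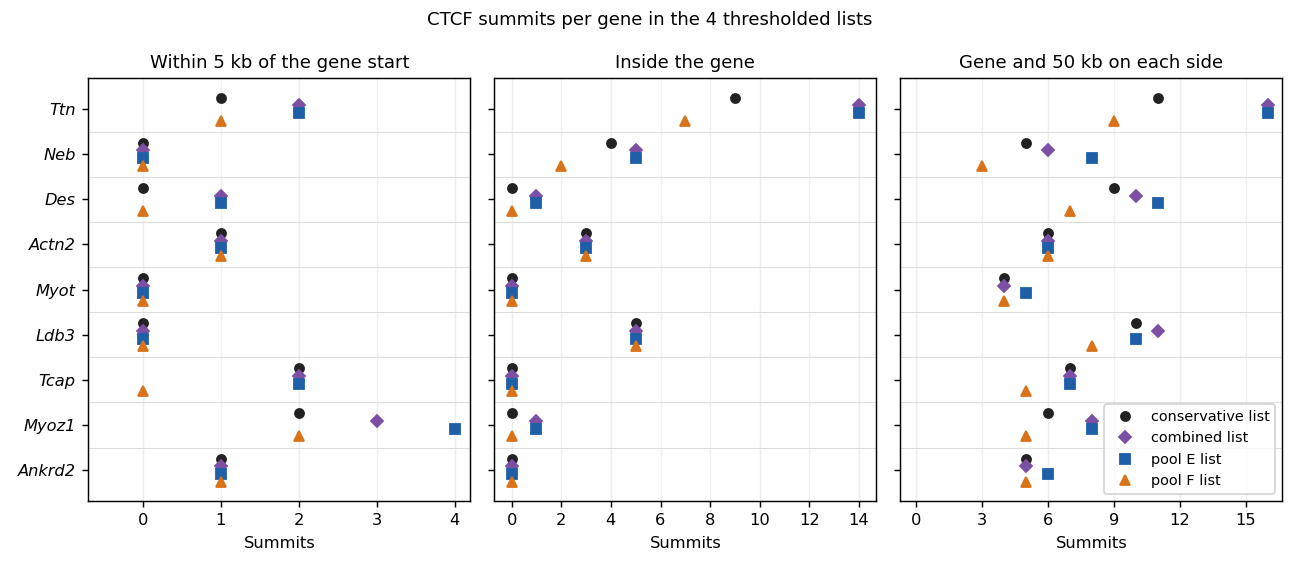
The 3 panels give, for each gene, the number of summits within 5 kb of the start, inside the gene, and in the gene with 50 kb on either side; symbols are the 4 thresholded lists. Counts for Actn2 are the same in every list (1, 3 and 6), while Ttn ranges from 7 to 14 inside the gene.

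Ranked candidates that missed the IDR threshold were weak, and most lay in the 2 longest genes. The 9 genes held 76 ranked candidates, of which 21 were in the conservative list and 55 were not, 25 of those in Ttn and 12 in Neb. Shorter genes also held some, with 7 in Ldb3 and 5 in Myot, and the counts were not set against gene length. Over chromosomes 1 to 19 and X, 42163 of 102694 ranked candidates were in the conservative list. These 55 had a median strength of 17.53, from 12.11 to 67.08, while the weakest called summit inside a gene had 57.50. A motif was present at 11 of the 55, against 19 of the 21 called summits. The share with a motif among all candidates that missed the threshold was not computed. Around the threshold the groups overlap in strength. The strongest of the 55 lay in a noncoding exon of a Myoz1 transcript, at 67.08 (59.66 in pool E and 9.103 in pool F), with an IDR of 0.610. A candidate in a Ttn coding exon 251765 bp from the start had 59.76 (53.44 and 8.549) on a motif with 1 mismatch, and 1 in a coding exon of Des had 52.28 (42.48 and 7.100). In these 3 the score was higher in the pool E input, as it was at all 63 conservative window peaks, and the scale of each input was not stated. In Ttn, 2 candidates came near the threshold, with IDRs of 0.0555 in intron sequence 4770 bp from the start and 0.0875 at 182395 bp.

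Most of the 63 summits lay on the motif, as CTCF summits did throughout the list. A match with at most 2 mismatches within 50 bp was present at 56 (88.9%, interval 78.8 to 94.5), against 77.6% of all conservative summits and 3.17% of windows displaced by 2000 bp. The share over all summits lies just below that interval. No test was made, and the difference was not adjusted for position or strength. The match was exact at 9 summits, had 1 mismatch at 23 and 2 at 24, and the median strengths in these groups were 486.4, 422.3 and 165.9. Over all conservative peaks the corresponding medians were 444.1, 311.4 and 200.5. The 7 summits without a match, which include 3 in the window of Ttn, had a median of 157.7 (146.0 over all peaks without one). Motif centres lay a median of 7.5 bp from the summit.

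Matches to the motif inside the 9 genes could be counted whether bound or not. A match counted as carrying a summit if one lay within 50 bp, also where another match was the best for that summit. Both exact matches, those in introns 5 and 10 of Ldb3, carried a conservative summit. Of 18 matches with 1 mismatch, 9 carried a summit, and of 130 with 2 mismatches, 10 did (7.69%). Over the whole genome, inside genes or not, the shares were 78.6%, 24.4% and 3.29%. Ttn held 7 sites with 1 mismatch, 5 of them with a summit, and Neb held 4, of which 2 had one. Ldb3 and Actn2 held 3 each with 1 bound. The single such site in Ankrd2, 8711 bp into the gene, had none within 50 bp.

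Other lists and settings moved the counts of these genes and of all genes together. With ranked candidates, 7 of the 9 had one within 5 kb of the start (63.6% of all protein-coding genes), and within 20 kb of the start 7 had a conservative summit (65.9%). From any transcript start, 7 of the 9 had a conservative summit within 5 kb (47.2%). A summit inside the gene was held by 6 of the 9 in the combined list (49.6%) and in that of pool E (50.3%), Des and Myoz1 being added. It was held by 4 in the list of pool F (40.5%), by 4 among conservative peaks above the median strength (30.1%) and by 8 among ranked candidates (64.6%). For partners of the 63 peaks, an overlap of 1 bp gave 95.2% in pool E (96.0% of all peaks) and 82.5% in pool F (78.9%). A reciprocal overlap of 80% gave 81.0% (76.6%) and 11.1% (8.97%). The combined list held a partner for 62 of the 63 (97.4% of all peaks), all but the Des site of 602.9. With at most 3 mismatches, 95.2% of the 63 summits had a motif (93.9% of all), with at most 1, 50.8% (45.2%), and with none, 14.3% (12.2%).

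A set of weaker sites shared a stretch of sequence. At 7 of the 56 motif-bearing summits (12.5%) the match began with the letters CCAGAAG on the strand of the motif, as it did at 17.6% of all motif-bearing conservative summits. This grouping was made after the sequences were seen. Rodent genomes carry many copies of the B2 short interspersed repeat, which is known to contain a CTCF motif; the repeat class was not annotated in the files used, only whether the base was masked. They are shown because the flanking bases of most are alike as well: in the first 5 lines the match is followed by cagat.
Ttn, intron 45 (chr2:76912932-76912985, minus strand): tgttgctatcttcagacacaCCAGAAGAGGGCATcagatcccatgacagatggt
Neb, intron 54, the weaker summit (chr2:52263101-52263154, minus strand): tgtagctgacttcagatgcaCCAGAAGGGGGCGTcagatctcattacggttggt
Des, downstream, in an intron of Speg (chr1:75390529-75390582, plus strand): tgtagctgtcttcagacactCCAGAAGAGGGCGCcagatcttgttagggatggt
Ldb3, intron 3, the weaker summit (chr14:34574827-34574880, minus strand): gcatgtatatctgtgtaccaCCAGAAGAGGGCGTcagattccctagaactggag
Tcap, upstream of the start (chr11:98382661-98382714, minus strand): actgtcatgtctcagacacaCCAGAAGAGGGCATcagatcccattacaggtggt
Myoz1, upstream (chr14:20673147-20673200, minus strand): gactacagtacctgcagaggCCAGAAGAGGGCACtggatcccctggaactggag
All 7 of these matches lay in masked repeats, against 4 of the other 49 (8.16%); over the whole list the shares were 91.1% and 9.28%. Their strengths ran from 57.50 to 267.4 with a median of 108.6, and the other 49 had a median of 413.6. The same medians over all conservative peaks were 136.6 and 334.1. The thresholded pool F list held a partner for 1 of the 7, the Myoz1 site of 267.4, and for 41 of the other 49. Over all conservative peaks it held one for 50.3% of the matches that begin with these letters and for 74.2% of the others. The Ldb3 site in intron 3 was overlapped by a pool F peak to a smaller extent. The seventh site lies 23735 bp before Ldb3 with a strength of 147.7. The pairs of close summits in intron 54 of Neb, in intron 3 of Ldb3 and upstream of Tcap each consist of 1 such site and 1 other.

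The motifs of some windows all lay on 1 strand. In the window of Des all 8 motifs were on the plus strand, the strand of the gene, from 43212 bp before its start to 53623 bp after it. In the window of Tcap all 6 were on the minus strand, against the gene, and in that of Myot all 4 were. Among windows of protein-coding genes with exactly 8, 6 and 4 motif-bearing summits, 1.94%, 3.30% and 11.9% had all on 1 strand. Counting windows with at least 4 such summits, 5.28% had all on 1 strand, against 3 of these 9. These windows overlap, so they are not independent, and the pattern was noticed after the values were seen. The other 6 windows held both strands: Ttn had 4 and 4, Ldb3 5 and 5, Neb 2 and 2, and inside the genes 9 motifs pointed along the gene and 10 against it.

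Seen from the gene ends, the nearest motif on either side of the gene pointed the same way in 8 of the 9 genes and converged only at Myoz1. Over all protein-coding genes, the flanks pointed the same way in 46.1% and converged in 28.9%. At Des, Tcap and Myot both motifs lie in the windows whose motifs were all on 1 strand, so these genes repeat that pattern. The distances differ widely, from 457 and 265 bp at Ankrd2 to 104576 and 79531 bp at Ttn, so these are not all neighbouring sites. The orientation also depends on which motif counts as nearest. With the pool E list, the pool F list, the conservative peaks above the median strength, or at most 1 mismatch, 2 of the 9 genes converged.

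Genes of the same structures beyond the 9 varied as widely. Of 42 further genes of the sarcomere, Z-disc and M-band, 22 (52.4%, interval 37.7 to 66.6) had a conservative summit within 5 kb of the start, against 37.4% of all protein-coding genes. The lower bound lies just above that share; no test was made on this list. The strongest was that near Pdlim7, a PDZ and LIM domain gene related to Ldb3, 3492 bp upstream with a strength of 596.5 and an exact motif. Unc45b, a myosin chaperone gene, had 580.8 at 4604 bp into the gene, also on an exact match. Myoz3, a relative of Myoz1, had 559.7 at 4419 bp upstream with no motif. Relatives of the 9 genes fell on both sides: Ankrd23 (107.5), Pdlim3 (257.1) and Pdlim5 (141.3) had a summit within 5 kb, while Myoz2, Actn3, Nebl and Ankrd1 had none, and the nearest to Nebl, which encodes a short relative of nebulin, lay 86654 bp away. Speg and Synpo2l, counted among the 22, share their summits with the windows of Des and Myoz1.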

How the data were processed

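CTCF ChIP-seq was measured in 4 libraries of gastrocnemius, 2 technical replicates of each of 2 pools. Per the deposited file notes, both technical replicates of a pool went into 1 mm10 alignment, and the pools shared 1 control alignment. Aligner and peak caller are not given in the sources used here. Strengths are the authors' deposited score, of unstated scale. For each peak the ranked lists give a −log10 value of the IDR, also deposited by the authors, and thresholded lists hold peaks at an IDR of 0.05 or less. Read depth is unknown, so intervals (95% Wilson) cover counting error only and treat peaks as independent.

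From these, summits (peak start plus the deposited offset) were placed on GENCODE M21, and matches to the CTCF core motif were searched on both strands of GRCm38.p6, which has the coordinates of mm10. Up to 2 mismatches were allowed, with the match centred within 50 bp of the summit. The hybrid's alleles were not separated. Summits within 5 kb of both ends of a gene went to the nearer end. Partners between lists needed a reciprocal overlap of 50%. Log2 ratios were computed from the deposited strengths. Scripts ran in Python 3.11.15 with numpy 2.4.6 and scipy 1.17.1 and were tested on simulated data. Named were the 9 genes with their summits, and from the further list the 3 genes with the strongest start summit (1 other gene that the rule names is not reported here); the relatives of the 9 genes named beside them, and the sites of ranked candidates, were chosen after their values were seen. The members and lists were chosen with earlier results of these data known. No test was made, since no list gives values per technical replicate and each pool gives a single value per peak.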

Additional observations from a re-analysis of the deposited data

How the results depend on the processing

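The number of genes with a summit near the start was 5 of 9; it was 3 with peaks above the median strength and 3 within 1000 bp (20.6% of all protein-coding genes at either setting), and from 4 to 7 with the other settings. The windows held 63 summits, against 36 above the median strength, 192 ranked candidates and 40 with flanks of 20000 bp; the genes held 21 inside, against 12 above the median strength and 76 ranked candidates. Of the 9 genes, 4 had a summit inside, and 8 had a ranked candidate. The share of window summits with a motif, 88.9%, was 14.3% with no mismatch, 50.8% with 1, 95.2% with 3 and 76.6% in the pool E list. The share with a partner in pool E was 95.2% at an overlap of 1 bp, and in pool F 11.1% at a reciprocal overlap of 80%, where the share over all conservative peaks was 8.97%. The 1 gene with converging flanks became 2 with 1 mismatch, the pool E list, that of pool F and peaks above the median strength. Of the 42 further genes 22 had a start summit, against 13 above the median strength (20.6% of all protein-coding genes), 9 within 1000 bp (20.6%) and 34 within 20000 bp (65.9%). Counts move with the list and distance by construction.

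No paired analysis was possible because the technical replicates of each pool are merged in every list, and leaving out single replicates was not run for the same reason. The lists of pool E and of pool F stand in for each pool alone. Read depth is unknown, so its effect on weak sites was not tested.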

Other observations

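Some of the strongest peaks of these windows came close to missing the threshold or missed it within a pool, although their strengths were high in both inputs. The strongest, 28310 bp before Ldb3 at 631.3, had an IDR of 0.0413 between the pools, and its pool E input had an IDR of 0.0523 within the ranked pool E list, just past 0.05. The peak of 602.9 upstream of Des had an IDR of 0.000600 between the pools, 0.601 within pool E and 0.00105 within pool F. The peak of 491.1 in Ppp1r1b, upstream of Tcap, had 0.000449, 0.0555 and 0.000400. Other strong peaks met the threshold within both pools: those of 578.2 and 558.6 near Ankrd2 had 0.00152 and 0.00179 within pool E. At an overlap of 1 bp, the thresholded pool E list held a partner for 95.2% of the 63 window peaks and 96.0% of all conservative peaks. Over the genome, 381 ranked candidates were at least as strong as the Ldb3 peak, and 128 of them (33.6%) met the threshold between the pools.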
